A study of Xenopus tropicalis with 2 samples.

Results

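Of the 14374 genes counted in sorted tail cells of Xenopus tropicalis tadpoles, 4 that encode neuropeptides are described here: pnoc (Xetrov90029837m.g), cck (Xetrov90016263m.g), avp (Xetrov90000232m.g) and rln3 (Xetrov90009844m.g). They were found by name in the deposited gene list, 1 identifier each. All 4 were chosen by their UMI counts in these libraries, that is by how their levels and positive cells differed between clusters and libraries, so those differences are descriptions. Single cell RNA-Seq libraries were made from GFP+ cells sorted from a line with 3 transgenes (pax6:GFP, cryga:RFP and actc1:RFP), in which a pax6 promoter drives GFP. The 24hpa library came from tail tissue regenerated over 24 h after the posterior part of the tail was amputated at NF stage 41, which is 3 days post fertilization. The uninjured library came from tail tips of uninjured tadpoles of the same line, for which the labels also give stage 41. Both groups carried all 3 transgenes, many tails were pooled, and each group had 1 library. By those labels the 24hpa tadpoles were also a day older, so amputation, age, the tissue taken and the library cannot be told apart.

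Neuropeptides are cut from longer precursor proteins by prohormone convertases, stored in dense-core vesicles and released to act on G protein-coupled receptors, usually beside a fast transmitter in the same neuron. Pnoc encodes the precursor of nociceptin, an opioid-related peptide that tempers pain signalling in the mammalian spinal cord. Cck encodes cholecystokinin, a gut hormone that is also made by neurons. Avp encodes the vasopressin precursor, whose amphibian peptide is vasotocin. Rln3 encodes relaxin-3, a peptide of the insulin and relaxin family that in mammals is made chiefly by a hindbrain nucleus.

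A unique molecular identifier (UMI) tags each captured transcript so that its amplified copies count as 1, and a cell with at least 1 UMI of a gene is called positive for it. The 24hpa library held 32798976 UMIs and 1090 cells, of which 295 were neural with a median of 8473 UMIs. The uninjured library held 48622597 UMIs and 2617 cells, of which 780 were neural with a median of 7353 UMIs. Only 1 barcode was called as a cell in both libraries, and it was not neural. Levels are a gene's UMIs summed over the cells compared, per 1000000 UMIs of those cells (CPM). A ratio is the log2 of the 24hpa level over the uninjured level. With 1 library per group no test was possible. Intervals are 95% and cover the counting of UMIs or cells only, neither the spread between cells nor that between tadpoles. Clusters carry the names the authors gave them, and since they were built from these genes too, a member's restriction to a cluster is a description.

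The 4 genes differed in how many neural cells carried them and in which library. Pnoc was found in many cells and was much higher at 24hpa. Cck and avp had nearly all their UMIs in a handful of uninjured cells of 1 cluster, and at 24hpa 5 cck UMIs and no avp UMI were found. Rln3 marked 1 cluster in both libraries, with fewer such cells at 24hpa. In neural cells pnoc was the member at least 2-fold higher at 24hpa, a side on which 7.08% of 8180 genes with at least 50 UMIs fell. Cck and rln3 were at least 2-fold lower, as were 7.15% of these genes. Avp, with 37 UMIs in all, was under that minimum. Since the members were picked for these levels, nothing is read from their number.

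Pnoc had 2394 UMIs in the 295 neural cells at 24hpa, against 249 UMIs in the 780 uninjured neural cells. The level was 732 CPM (703 to 762) at 24hpa and 37.0 CPM (32.6 to 41.9) in the uninjured library, a log2 ratio of 4.31 (4.12 to 4.50), or 19.8-fold. At least 1 UMI was found in 43.4% of neural cells at 24hpa (37.7 to 49.3%) and in 19.1% of uninjured neural cells (16.4 to 22.0%), a difference of 24.3 percentage points (18.0 to 30.6). Both the share and the amount per cell differed. The median positive cell held 3 UMIs at 24hpa, with an upper quartile of 16 and a highest value of 303, whereas in the uninjured library the median was 1, the upper quartile 2 and the highest value 6. Cells with at least 10 UMIs numbered 39 at 24hpa and carried 2140 of the 2394 UMIs, against 0 of 780 uninjured cells, which by 3 counts allows a share of cells with that many UMIs of up to 0.385%. When cells were thinned to 2600 UMIs each, 30.8% and 8.95% of neural cells were positive at 24hpa and in the uninjured library.

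**Figure D1:**
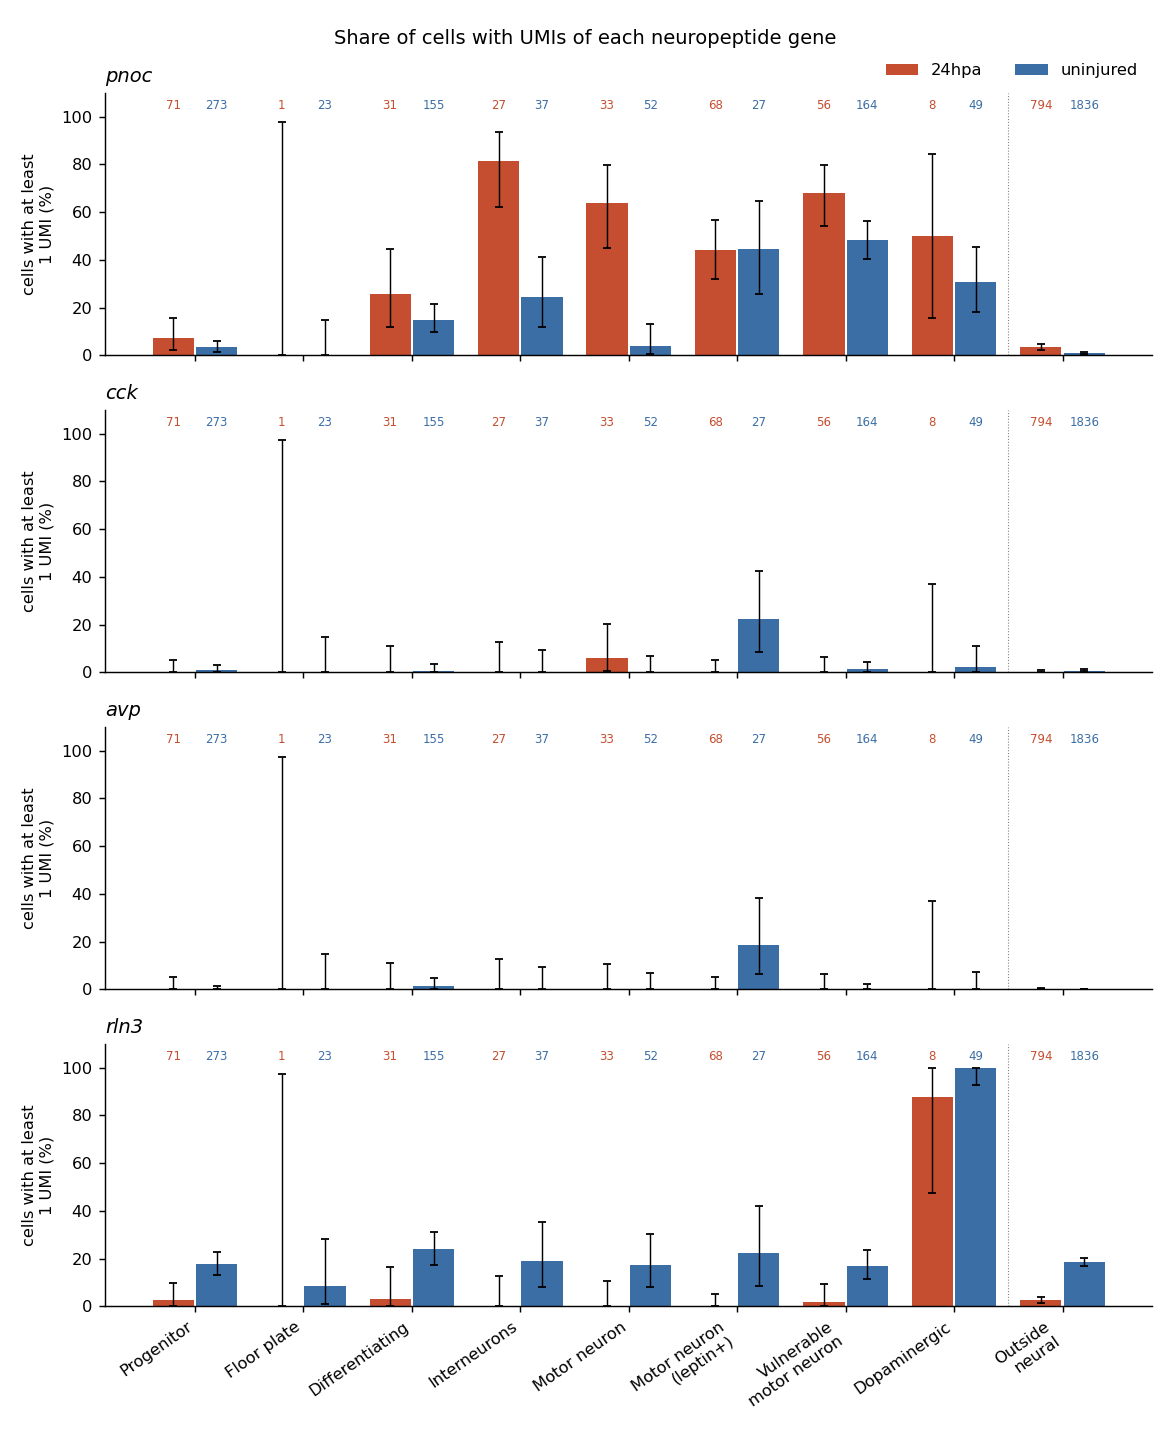
Percent of cells with at least 1 UMI (vertical axis) of each gene in the 8 neural clusters and in all cells outside the neural lineage, 24hpa in orange to the left of uninjured in blue. Bars are shares with exact 95% intervals and the numbers above them are cells. For pnoc the shares were 81.5% at 24hpa and 24.3% uninjured in interneurons, and for rln3 the uninjured share was 18.6% even outside the neural lineage.

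Outside the neural lineage pnoc was near background. Positive cells made up 3.27% of 794 such cells at 24hpa (median depth 12227 UMIs) and 0.926% of 1836 uninjured cells (median depth 8939 UMIs), with at most 2 UMIs in any of them. The cluster named Bipotent Progenitor stood above the rest, with 10 of 36 cells positive at 24hpa and 3 of 87 uninjured. The 8 matched neuron markers of 10 listed summed to 2700 CPM there at 24hpa and 835 CPM uninjured, and their part in its pnoc UMIs was not tested. Free RNA, measured in barcodes of 1 to 100 UMIs that were not called as cells, held 105 CPM of pnoc at 24hpa and 8.98 CPM uninjured. From the levels of muscle, notochord, epidermal and erythroid genes in neural cells, free RNA was put at 2.85% of neural UMIs at 24hpa and 9.56% uninjured, which would give neural cells 3.00 CPM and 0.858 CPM of pnoc.

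The interneuron cluster carried most of the pnoc at 24hpa. It held 1438 UMIs in 22 of 27 cells at 24hpa (6189 CPM, 5874 to 6518), against 23 UMIs in 9 of 37 uninjured cells (76.9 CPM, 48.7 to 115), a log2 ratio of 6.33 (5.74 to 6.99). The cells at 24hpa spread widely: 4 of them held 303, 269, 243 and 132 UMIs, 11 held between 14 and 62, and 7 held 9 or fewer. The 9 uninjured positive cells held 6, 4, 3, 3, 3, 1, 1, 1 and 1 UMIs. Hence 18 cells at 24hpa, those with 8 or more UMIs, lay above every uninjured cell of the cluster. Cells with the transporter gene slc32a1 alone, described below, numbered 12 of 27 at 24hpa and 8 of 37 uninjured. The ratio thus mixes level and makeup, whose parts were not tested. Among 1510 genes with at least 50 UMIs in this cluster, 6.69% were at least 2-fold higher at 24hpa and 3.71% lower, or 4.9% and 5.56% with TMM scaling, which corrects for library composition.

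In the motor neuron cluster pnoc was nearly absent from uninjured cells. It held 403 UMIs in 21 of 33 cells at 24hpa, with a highest value of 65 and a median of 16 per positive cell, against 2 UMIs in 2 of 52 uninjured cells. The levels were 1918 CPM (1735 to 2115) at 24hpa and 8.47 CPM (1.03 to 30.6) uninjured, a log2 ratio of 7.82 (5.96 to 10.87), where 8.79% of 1433 genes were at least 2-fold higher. That ratio compares cells unlike in the transporter genes found. Of the 403 UMIs 399 lay in 19 cells with the glutamate transporter gene slc17a7, described below, a group with 0 uninjured cells. Whether other cells lay in the cluster or the same cells held other genes cannot be told apart. Median depths were 6174 UMIs at 24hpa and 4000.5 UMIs uninjured, and the positive shares were 63.6% and 3.85%. Of all genes here 6.91% were at least 2-fold lower, and with TMM scaling 6.84% were higher and 8.58% lower.

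In the leptin+ motor neuron cluster the shares were alike, 30 of 68 cells (44.1%, 32.1 to 56.7%) at 24hpa and 12 of 27 uninjured cells (44.4%, 25.5 to 64.7%). The UMIs were not: 349 at 24hpa and 21 uninjured, a log2 ratio of 2.66 (2.03 to 3.37), with 19.8% of 2578 genes at least 2-fold higher. That ratio rested on 5 cells at 24hpa with 114, 68, 61, 34 and 16 UMIs, since the other 25 positive cells held 6 or fewer and the uninjured ones 4 or fewer. When CPM was averaged per cell the log2 ratio was 1.35.

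Vulnerable motor neurons, as the cluster is named, carried pnoc widely and thinly in both libraries. UMIs were found in 38 of 56 cells at 24hpa (67.9%, 54.0 to 79.7%) and in 79 of 164 uninjured cells (48.2%, 40.3 to 56.1%), and each library had 130 UMIs. Levels were 307 CPM (256 to 364) and 113 CPM (94.3 to 134), a log2 ratio of 1.44 (1.08 to 1.80) against a cluster in which 9.08% of 3402 genes were at least 2-fold higher and 5.06% lower, or 5.09% and 9.35% with TMM scaling. Of all neural pnoc UMIs this cluster held 5.43% at 24hpa and 52.2% among uninjured cells.

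Differentiating neurons had 44 UMIs in 8 of 31 cells at 24hpa and 39 in 23 of 155 uninjured cells, a log2 ratio of 2.44 (1.79 to 3.10). The highest cells held 16 UMIs at 24hpa and 4 uninjured. Here 5.38% of 3939 genes were at least 2-fold higher. In spinal cord progenitors the levels were 6.46 CPM (2.79 to 12.7) at 24hpa and 6.27 CPM (3.51 to 10.3) uninjured, with a log2 ratio of 0.04 whose interval, -1.40 to 1.37, included 0, and 4.57% of 5517 genes were at least 2-fold higher there. The dopaminergic cluster had 8 cells at 24hpa, too few for a ratio to be read, and 4 of them held 11, 7, 3 and 1 UMIs, while 15 of 49 uninjured cells held at most 2.

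**Figure D2:**
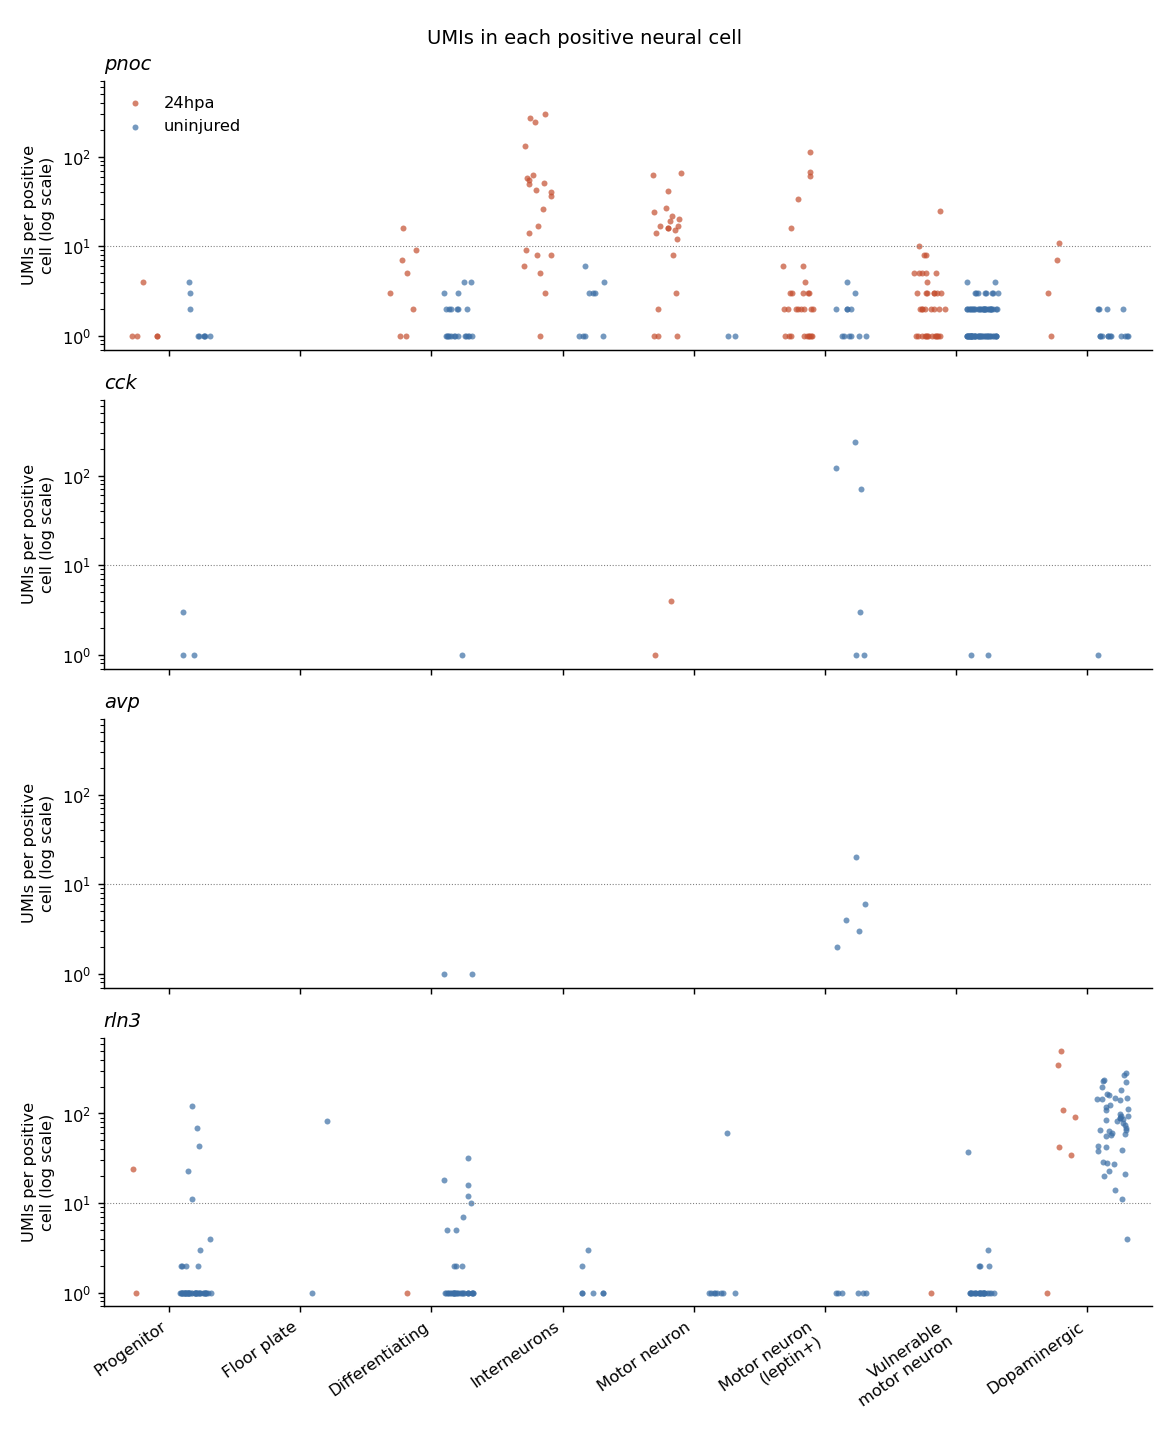
UMIs of each gene in every positive neural cell (vertical axis, log scale), 1 point per cell, by cluster, 24hpa in orange to the left of uninjured in blue, with a dotted line at 10 UMIs. All 39 cells with at least 10 pnoc UMIs are from 24hpa, and the cck cells above that line, with 240, 122 and 70 UMIs, are uninjured.

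Among the 6 clusters compared, ordered by level at 24hpa, interneurons came first, then motor neurons, leptin+ motor neurons, vulnerable motor neurons, differentiating neurons and progenitors, with no overlap of counting intervals between neighbours in this order. The place of leptin+ motor neurons rests on the 5 cells named above. Without them the level was 100.5 CPM, below vulnerable motor neurons (307 CPM) and inside the interval of differentiating neurons (125 CPM, 90.7 to 168). Only the leptin+ cluster had its high cells taken out. Among differentiating neurons 1 cell held 16 of 44 UMIs, and among vulnerable motor neurons 2 cells held 35 of 130. In the uninjured library the order was vulnerable motor neurons, leptin+ motor neurons, interneurons, differentiating neurons, motor neurons and progenitors. There the first 3 overlapped one another, as did differentiating and motor neurons, and motor neurons and progenitors.

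Pnoc cells were sorted by the transmitter gene they held, a grouping chosen after the data were seen. Slc32a1 encodes the vesicular transporter of GABA and glycine, slc17a7 a vesicular transporter of glutamate and slc18a3 that of acetylcholine. Detection of each depends on depth, so a cell without UMIs of a transporter may still express it. Slc17a6, another vesicular glutamate transporter gene, was not used in the grouping. Uninjured neural cells held 84 UMIs of it, with the highest level in motor neurons (89.0 CPM). Those at 24hpa held 64, with the highest level in vulnerable motor neurons (61.3 CPM). A cell named here for 1 transporter alone may thus hold slc17a6 too. In the interneuron cluster, all 12 cells at 24hpa with slc32a1 alone held pnoc, with 1312 UMIs and 13008 CPM (12313 to 13731), against 6 of 8 such uninjured cells with 13 UMIs and 313 CPM (167 to 535). Cells of the same cluster with slc17a7 alone were positive in 7 of 8 cases at 24hpa (57 UMIs) and in 1 of 21 uninjured (1 UMI). Each of the 12 slc32a1 cells at 24hpa held at least 10 pnoc UMIs, and none of the 8 uninjured ones held more than 4. Penk, which encodes the enkephalin precursor, was found in 9 of the 22 pnoc-positive and 0 of the 5 pnoc-negative interneurons at 24hpa.

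A different transmitter gene went with pnoc in the motor neuron cluster. At 24hpa 19 of its 33 cells held slc17a7 alone, and all 19 held pnoc, with 399 of the cluster's 403 UMIs. No uninjured cell of the cluster held slc17a7 alone, and 49 of 52 held slc18a3 alone. By these genes the cluster held unlike cells in the libraries. Among cells with slc18a3 alone pnoc stood at 14.5 CPM (0.368 to 80.9) at 24hpa, from 1 of 10 cells, and at 9.31 CPM (1.13 to 33.6) uninjured, from 2 of 49. Pnoc-positive cells at 24hpa (median depth 6559 UMIs) also lacked other genes of the pnoc-negative ones (median depth 5964.5 UMIs). Slc18a3 was found in 1 of 21 and in 12 of 12, prdm14, a transcriptional regulator, in 0 of 21 and in 8 of 12, and tal1, a transcription factor, in 1 of 21 and in 8 of 12. Lhx1, a LIM homeobox gene of spinal interneurons, was found in 8 of 21 and in 1 of 12. The pnoc-rich cells of the cluster named Motor Neuron thus carried slc17a7 and not slc18a3, and how the clustering placed them there was not tested.

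In the leptin+ and vulnerable motor neuron clusters pnoc lay in cells with the cholinergic gene. All 5 leptin+ cells with at least 10 pnoc UMIs held slc18a3 and isl2, a LIM homeobox gene of motor neurons, against 53 and 13 of the other 63 cells at 24hpa. The 5 also held tac1, the substance P precursor, as did 61 of the other 63. Their median depth was 27024 UMIs, against 8692 UMIs for the other 63, and the part of depth in these shares was not tested. In vulnerable motor neurons slc18a3 was found in 38 of 38 pnoc-positive cells at 24hpa and in 78 of 79 uninjured ones, and nearly as often in pnoc-negative cells, 16 of 18 and 81 of 85. Over all neural cells, pnoc stood at 3414 CPM (3233 to 3602) at 24hpa and 46.1 CPM (32.9 to 62.8) uninjured in cells with slc32a1 alone. The levels were 1424 CPM (1299 to 1557) and 8.57 CPM (from 3 UMIs) with slc17a7 alone, and 389 CPM (354 to 426) and 80.2 CPM (68.2 to 93.7) with slc18a3 alone. These groups draw on unlike clusters in the libraries. With slc32a1 alone, 12 interneurons held 1312 of the 1334 pnoc UMIs at 24hpa. At least 10 rln3 UMIs were held by 5 of the 30 slc32a1 cells at 24hpa and 52 of the 84 uninjured. With slc17a7 alone, 19 of the 40 cells at 24hpa and 0 of the 38 uninjured were of the motor neuron cluster.

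**Figure D3:**
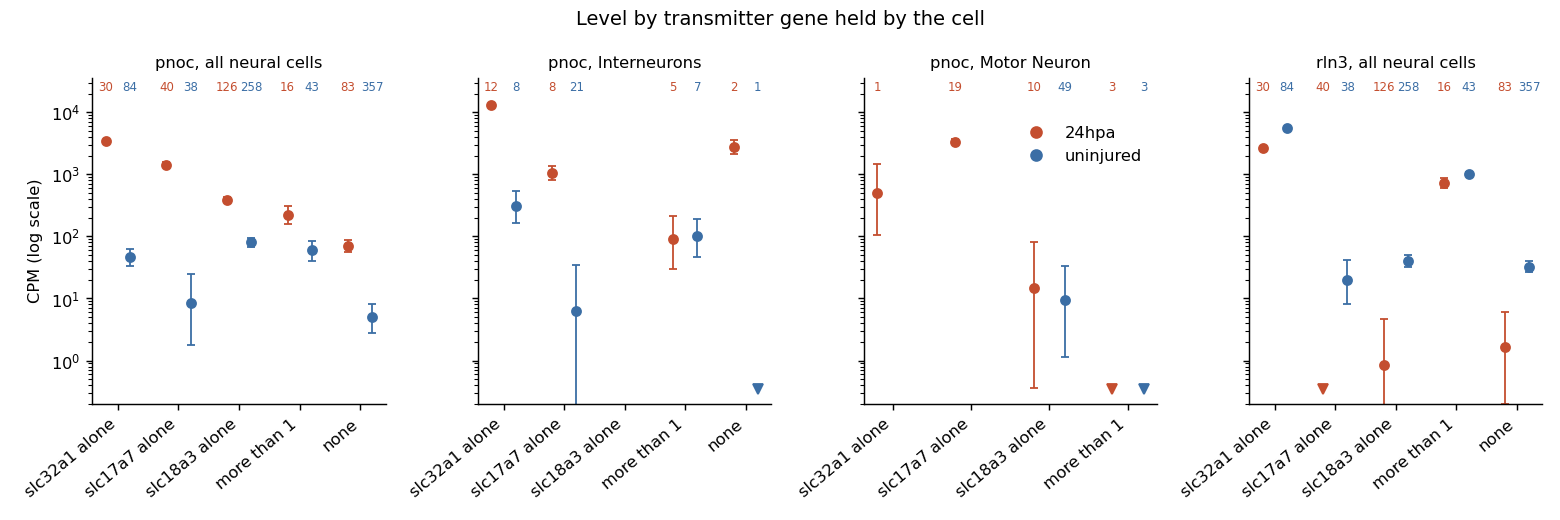
CPM (vertical axis, log scale) of pnoc in all neural cells, interneurons and the motor neuron cluster, and of rln3 in all neural cells, by which of slc32a1, slc17a7 and slc18a3 a cell held, 24hpa in orange to the left of uninjured in blue. Points carry exact 95% Poisson intervals, triangles at the foot mark 0 UMIs, and the numbers are cells. Pnoc was 13008 CPM at 24hpa and 313 CPM uninjured in interneurons with slc32a1 alone. The groups over all neural cells draw on unlike clusters in the libraries.

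Pnoc-positive cells were mostly called in G1 by the authors' cell cycle scoring. G1 was called in 123 of 128 positive cells at 24hpa (96.1%) and 123 of 149 uninjured (82.6%), against 62.9% and 48.2% of the other neural cells. All 39 cells with at least 10 UMIs were in G1. The other neural cells include most spinal cord progenitors, of which 5 of 71 at 24hpa and 9 of 273 uninjured were pnoc-positive. The part of cell type in the G1 shares was not tested. Among genes with at least 50 UMIs in neural cells, those most alike to pnoc over the 14 pools of cluster and library were ankrd13c (Pearson r = 0.95 of log2(CPM + 10)), LOC100124991 (0.93) and mlx (0.93). The pools, each of at least 20 cells, share libraries and depth, and the 3 genes were found in 56, 66 and 170 cells that also held pnoc.

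The genes with the highest ratio of CPM in pnoc-positive over other neural cells were LOC100498450, gfra2, LOC100491930, LOC100487636 and LOC100486511. Gfra2, which encodes a receptor for the growth factor neurturin, had UMIs in 24 of the 277 positive cells. LOC100498450 had UMIs in 4 of them, with 55.6% in 1 cell. The ranking pools the libraries, and several of these genes came mostly from 1 library. In pnoc-positive cells LOC100498450 had 0 UMIs at 24hpa and 90 uninjured, gfra2 86 and 21, LOC100491930 61 and 2, LOC100487636 69 and 8, and LOC100486511 41 and 32.

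Cck was confined, in these libraries, to very few cells. Neural cells held 5 UMIs in 2 of 295 cells at 24hpa, against 446 UMIs in 13 of 780 uninjured cells. Levels were 1.53 CPM (0.497 to 3.57) and 66.3 CPM (60.3 to 72.8), a log2 ratio of -5.44 (-7.07 to -4.20). The shares of positive cells, 0.678% at 24hpa (0.0822 to 2.43%) and 1.67% uninjured (0.890 to 2.83%), differed by -0.989 percentage points with an interval from -2.25 to 0.902. An interval that includes 0 does not show that the shares were alike. Outside the neural lineage 2 of 794 cells at 24hpa and 13 of 1836 uninjured cells held 1 cck UMI each, and free RNA held 0 CPM and 7.85 CPM.

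Nearly all cck came from the leptin+ motor neuron cluster of the uninjured library, where 6 of 27 cells held 240, 122, 70, 3, 1 and 1 UMIs. That was 437 of the 446 neural UMIs, and 432 of them were in 3 cells. At 24hpa 0 of 68 cells of this cluster held cck, which allows a share with a UMI of up to 4.41% by 3 counts (exact interval up to 5.28%), against 22.2% (8.62 to 42.3%) uninjured. Against a floor of 3 UMIs over the group, the level was at least 382-fold lower at 24hpa, where 6.21% of 2578 genes were at least 2-fold lower. That fold compares cells unlike in transporter genes. Cells with slc17a7 alone, 6 uninjured cells that held 435 of the 437 UMIs, numbered 1 at 24hpa, and among cells with slc18a3 alone cck had 0 UMIs in 57 cells at 24hpa and 1 UMI in 17 uninjured. The 2 positive cells at 24hpa were in the motor neuron cluster and held 4 and 1 UMIs, against 0 of 52 uninjured cells. The cell with 4 held 65 pnoc UMIs, the most in that cluster. Without the leptin+ cluster the log2 ratio of cck over neural cells turned to 0.48, from 5 UMIs at 24hpa and 9 uninjured.

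Avp was found with cck. Neural cells held 0 UMIs at 24hpa, which by 3 counts allows a share with a UMI of up to 1.02% of 295 cells (exact interval up to 1.24%), against 37 UMIs in 7 of 780 uninjured cells. In the leptin+ cluster 5 uninjured cells held 20, 6, 4, 3 and 2 UMIs, and 2 differentiating neurons held 1 each. Levels at 24hpa were at least 5.99-fold lower over neural cells and at least 30.6-fold lower in the leptin+ cluster. The leptin+ fold, like that of cck, compares cells unlike in transporter genes. All 35 UMIs lay in the 6 uninjured cells with slc17a7 alone, a group of 1 cell at 24hpa. Leptin+ cells with slc18a3 alone, 57 at 24hpa and 17 uninjured, held 0 avp UMIs in both libraries. No cell outside the neural lineage held avp in either library, and free RNA held none. Of the 4 members avp alone had no UMI outside the neural lineage, and its counts are few. Oxt (Xetrov90000231m.g), which encodes the related oxytocin-type precursor and has the neighbouring identifier, had 1 neural UMI, in a cell that also held cck and avp. Reads that both genes could share were not examined.

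The same leptin+ cells held UMIs of both cck and avp. Of 13 cck-positive and 7 avp-positive uninjured cells 4 held both, with 240 and 3, 122 and 4, 70 and 20, and 3 and 6 UMIs of cck and avp. The fifth avp cell of the cluster held 2 avp UMIs and no cck.

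These 5 cells were unlike the rest of their cluster in the genes they held, though they were also deeper, with a median of 15553 UMIs against 7804 UMIs for the other 22, and all 5 were called in G1. Slc18a3 was found in 0 of 5, against 20 of the other 22, and slc17a7 in 5 of 5, against 3 of 22. Prdm14 was found in 5 of 5 and in 4 of 22. Penk was found in all 5, with 32, 44, 84, 35 and 33 UMIs, and pou4f1.2, a POU homeobox gene of the family that marks sensory neurons, had 10, 3, 5, 5 and 4 UMIs. Isl1 and isl2, LIM homeobox genes of motor and sensory neurons, were each found in 4 of 5. Tac1, found in 21 of the other 22, had 1 UMI in 1 of them, and tal1 and lepr, the leptin receptor gene, had none. The cells with cck and avp in the cluster named for leptin+ motor neurons thus held the glutamate transporter and no UMI of the acetylcholine transporter, which motor neurons use.

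Genes alike to cck and avp over the pools need not share their cells. LOC100498450 was most alike to both cck (r = 0.97) and avp (r = 1.00), yet its 90 neural UMIs lay in 4 cells, none of which held cck or avp. For cck the next were Xetrov90003125m.g (0.89) and pou4f1.2 (0.89), and for avp cck itself (0.97) and pou4f1.2 (0.94). Of these, pou4f1.2 shared 5 of its 22 cells with cck and 5 with avp. Across the 15 cck-positive cells penk had the highest ratio over other neural cells, with UMIs in 7 of them. The next 3 genes, Xetrov90023009m.g, Xetrov90019276m.g and Xetrov90023008m.g, each had over 94% of their UMIs in 1 cell, and LOC100495760 was spread over 6.

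Rln3 was the member with the most UMIs and the most background. Neural cells held 1152 UMIs at 24hpa and 5543 uninjured, levels of 352 CPM (332 to 373) and 824 CPM (803 to 846) and a log2 ratio of -1.23 (-1.32 to -1.13). Positive cells were 11 of 295 (3.73%, 1.88 to 6.57%) at 24hpa and 186 of 780 uninjured (23.8%, 20.9 to 27.0%), a difference of -20.1 percentage points (-23.6 to -16.1). Outside the neural lineage, however, 2.52% of 794 cells at 24hpa (1.55 to 3.86%) and 18.6% of 1836 uninjured cells (16.9 to 20.5%) also held rln3. In neural clusters other than the dopaminergic one, positive shares ran from 0 to 3.23% at 24hpa and from 8.70 to 23.9% uninjured. These lay close to the shares outside the neural lineage, so a single rln3 UMI is read as background. Free RNA held 60.0 CPM of rln3 at 24hpa and 238 CPM uninjured. At the free RNA fractions given above that would put 1.71 CPM and 22.7 CPM into neural cells, against medians of 1.38 CPM and 20.4 CPM over the clusters outside the neural lineage.

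Cells with at least 10 rln3 UMIs were set apart from that background. They numbered 7 of 295 at 24hpa (2.37%) and 61 of 780 uninjured (7.82%), a difference of -5.45 percentage points (-7.87 to -2.48), and they held 1148 and 5381 UMIs. This threshold was chosen after the data were seen. Outside the neural lineage 0 of 794 cells at 24hpa and 2 of 1836 uninjured cells reached it. In the dopaminergic cluster the 8 cells at 24hpa held 495, 351, 110, 92, 42, 34, 1 and 0 UMIs. The 49 uninjured cells held between 4 and 283 UMIs with a median of 85, and 48 held at least 10. The ranges overlapped, 2 cells at 24hpa lay above every uninjured one and 2 below. The summed levels were 12716 CPM at 24hpa and 10595 CPM uninjured, but with 8 cells at 24hpa, of which 1 gave 44.0% of the UMIs, no ratio is read from them.

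The cluster made up 8 of 295 neural cells at 24hpa and 49 of 780 uninjured. Without the cell with 495 UMIs the level in the cluster was 9180 CPM at 24hpa, so which library had the higher level per cell rests on that cell. Fewer cells sorted, captured or present in the tissue cannot be told apart.

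**Figure D4:**
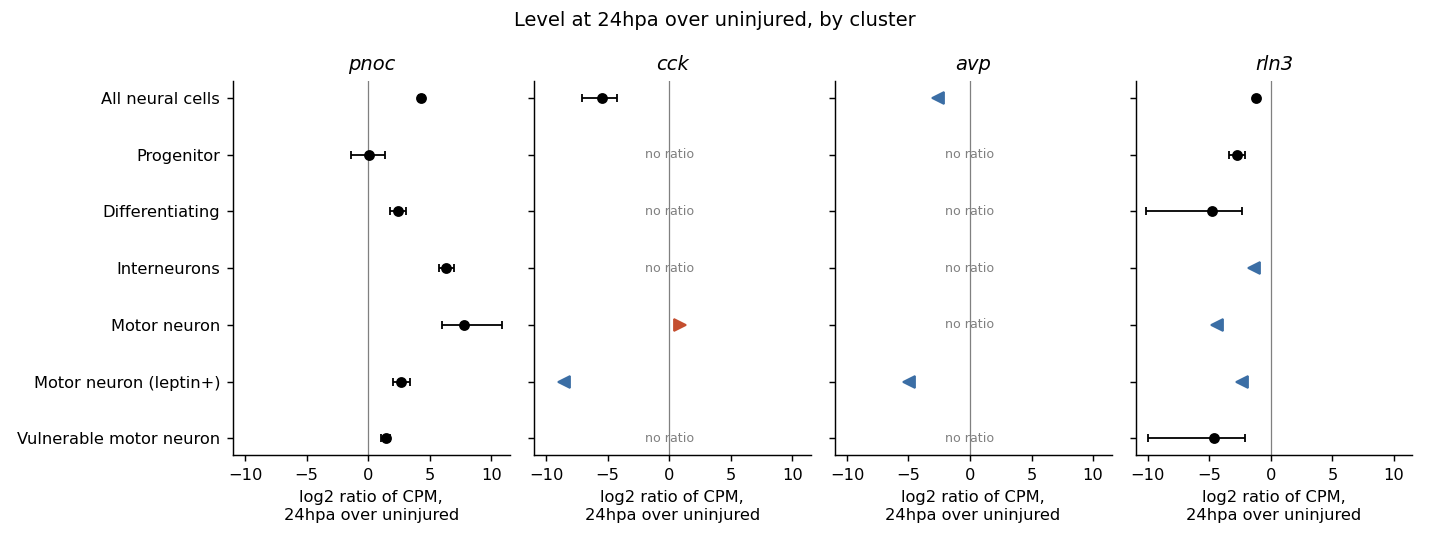
Log2 ratio of CPM at 24hpa over uninjured (horizontal axis) for each gene, over all neural cells and in the 6 clusters with at least 20 cells per library. Points carry exact 95% intervals, triangles are bounds against a floor of 3 UMIs and point the way the true ratio may lie, and "no ratio" marks too few UMIs. The pnoc ratios of motor neurons (7.82) and interneurons (6.33) have overlapping intervals, and cck was lowest in leptin+ motor neurons (at most -8.58). The pnoc and cck values of motor neurons and the cck and avp values of leptin+ motor neurons compare cells unlike in transporter genes. Interneurons differed in makeup too, with slc32a1 alone in 12 of 27 cells at 24hpa and 8 of 37 uninjured. The rln3 values lie below 0 in all 6, of which those of interneurons and leptin+ motor neurons are not told from free RNA. The rln3 values of motor and vulnerable motor neurons rest in large part on 1 uninjured cell each, with 61 of 69 and 37 of 69 UMIs. In progenitors 1 cell held 121 of 318 uninjured UMIs, and 1 held 24 of 25 at 24hpa. In differentiating neurons 1 cell held 32 of 137 uninjured UMIs. The rest of these counts was not compared with free RNA.

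In the 6 clusters compared, the log2 ratios or upper bounds of rln3 were all below 0, from -4.83 to -1.37. In leptin+ motor neurons the uninjured level, 22.8 CPM from 6 cells with 1 UMI each, was that expected of free RNA (22.7 CPM), and in interneurons it was 33.4 CPM, so for these clusters nothing is read from the ratio. Genes at least 2-fold lower made up 7.34% in progenitors, 10.5% in differentiating neurons, 3.71% in interneurons, 6.91% in motor neurons, 6.21% in leptin+ and 5.06% in vulnerable motor neurons. These clusters held few rln3-rich cells, and where present they carried much of the uninjured count. In motor neurons 1 uninjured cell held 61 of 69 UMIs, and in vulnerable motor neurons 1 held 37 of 69. The highest uninjured cell held 121 of 318 UMIs in progenitors and 32 of 137 in differentiating neurons. Levels without such cells were not computed, so whether the rest in these clusters stood above free RNA was not tested. The free RNA level differed between the libraries in the same direction, by the values given above. With free RNA subtracted the log2 ratio was -2.58 in progenitors and at most -4.24 in motor neurons. It was -5.69 in differentiating and -5.84 in vulnerable motor neurons, where less than 1 UMI was left at 24hpa. In the leptin+ and interneuron clusters no ratio was left. Rln3-rich cells outside the dopaminergic cluster were 13 uninjured neural cells. Among them were 5 progenitors with 121, 68, 43, 23 and 11 UMIs and 5 differentiating neurons with 32, 18, 16, 12 and 10. A floor plate cell held 83, a motor neuron 61 and a vulnerable motor neuron 37. At 24hpa 1 progenitor held 24 of the 25 UMIs of its cluster. Outside the neural lineage an uninjured cell of the notochord cluster held 48 rln3 UMIs together with 8 of pkd2l1 and 7 of slc32a1, and a cell of the cluster named Other 1 held 12 with 5 of pkd2l1. How these cells came to lie in other clusters was not tested.

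The rln3 cluster is named for dopaminergic neurons, and its levels of marker genes are described here. The authors list pkd2l1, pkd1l2 and slc32a1 as markers of this cluster, found by comparing clusters of these same cells. High levels of these genes were thus given in advance and do not test the name. Of 4 listed dopaminergic markers 1 was matched by name, ddc, which encodes aromatic amino acid decarboxylase, at 757 CPM at 24hpa and 509 CPM uninjured. All 4 listed markers of neurons that contact the cerebrospinal fluid were matched and had UMIs in both libraries, and together they stood at 5007 CPM at 24hpa and 5735 CPM uninjured. Such neurons line the central canal, use GABA and sense the fluid through the channel encoded by pkd2l1. Pkd1l2, of the same channel family, had 3674 CPM at 24hpa and 4509 CPM uninjured, and pkd2l1 had 339 CPM and 476 CPM. Gata2, a transcription factor of these neurons, had 712 CPM and 511 CPM, and slc32a1 1029 CPM and 931 CPM. Ddc alone does not settle the name, so the cluster is called here by its rln3, pkd1l2 and slc32a1.

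Over all neural cells, those with at least 10 rln3 UMIs mostly held these genes. Slc32a1 was found in 7 of 7 at 24hpa and 58 of 61 uninjured, against 26 of 288 and 49 of 719 of the other neural cells. Pkd2l1 was found in 6 of 7 and 52 of 61, against 1 of 288 and 5 of 719. Gata2 was found in 7 of 7 and 54 of 61, against 7 of 288 and 26 of 719. These counts were carried by the cells inside the rln3 cluster. Of the 13 rln3-rich uninjured cells outside it, 10 held slc32a1, 6 pkd2l1 and 12 gata2, against 48, 46 and 42 of the 48 inside it. The 5 differentiating neurons held no pkd2l1, and those with 16 and 12 rln3 UMIs held no slc32a1 but 7 and 5 UMIs of slc18a3. The 24hpa progenitor outside the cluster held slc32a1 and gata2 and no pkd2l1. Sox2, a progenitor gene, was also present, in 7 of 7 and 54 of 61, against 101 of 295 and 456 of 780 of all neural cells, these cells included. Among uninjured neural clusters its level was highest in the rln3 cluster (585 CPM), and at 24hpa it was higher in progenitors (646 CPM). Penk, found in 7 of the 8 cells of the cluster at 24hpa and 38 of 49 uninjured, stood there at 1277 CPM and 1029 CPM. Most alike to rln3 over the 14 pools were pkd1l2 (r = 0.97), tal2, a transcription factor gene (0.93), and Xetrov90013016m.g (0.90). The 8 cells of the cluster at 24hpa were too few for a pool. Its uninjured pool held 4850 of the 5543 uninjured neural rln3 UMIs, and the part of that pool in r was not tested. The genes with the highest ratio in rln3-positive over other neural cells were pkd2l1, lgals4, pkd1l2, myo3b-like.1 and LOC733461, with UMIs in 62, 42, 83, 56 and 26 of 197 cells.

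Few neural cells held more than 1 member, but pnoc and rln3 met about as often as their single shares would give, or more. Of 11 rln3-positive cells at 24hpa 5 held pnoc, against 128 of all 295 neural cells. Of 186 uninjured ones 45 did, against 149 of all 780. Whether members share cells more or less than by their shares was not tested. Of 295 neural cells at 24hpa 135 held at least 1 member and 6 held 2, and of 780 uninjured cells 298 held at least 1, 49 held 2 and 4 held 3. Most of the uninjured overlap was between pnoc and rln3, 45 cells, which includes the rln3 background described above. At 24hpa 1 cell held at least 10 UMIs of both pnoc and rln3.

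Listed receptor genes were sparsely counted, and of 15 listed 4 were matched by name. Among these, oprm1 and oprd1 encode opioid receptors other than that of nociceptin. Only cckar and avpr1a are receptors for member peptides. Oprm1, the mu opioid receptor gene, had 30 UMIs in 25 of 295 neural cells at 24hpa and 19 UMIs in 15 of 780 uninjured neural cells, and avpr1a, a vasopressin-type receptor gene, had 1 and 2. Oprd1 and cckar had none in neural cells. The nociceptin and relaxin-3 receptors were not matched by name and are not analysed here.

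Other neuropeptide precursors also differed in both directions. Of 68 listed 29 were matched by name, 21 had UMIs in neural cells and 8 had at least 50. Of those 8, at least 2-fold higher at 24hpa were tac1, uts2b, crh and grp, at least 2-fold lower were apln and agrp, and between were penk and cartpt, with a median log2 ratio of 0.93. The shares of all genes past 2-fold, given above, were 7.08% and 7.15%. Tac1 had 18197 UMIs at 24hpa and 5581 uninjured, a log2 ratio of 2.75 (2.70 to 2.79). It was highest in the leptin+ cluster, at 16577 CPM at 24hpa and 4493 CPM uninjured. Uts2b, a urotensin II-like precursor, had 710 and 100 UMIs (3.87, 3.56 to 4.19), of which 458 and 20 were in the leptin+ cluster. That cluster made up 68 of 295 neural cells at 24hpa and 27 of 780 uninjured. The ratios of tac1 and uts2b over neural cells thus mix level and makeup, whose parts were not tested.

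Crh, which encodes corticotropin-releasing hormone, had 46 UMIs at 24hpa and 31 uninjured (1.61, 0.92 to 2.32), and 36 and 19 of them were in progenitors. Grp, the gastrin-releasing peptide gene, named outside the rule because it is 1 of the 4, had 69 and 3 UMIs. Penk had 294 and 904 UMIs (-0.58, -0.77 to -0.39) and differed in direction between clusters, which was not tested. In interneurons it stood at 508 CPM at 24hpa and 104 CPM uninjured, and in leptin+ motor neurons at 27.5 CPM and 1025 CPM. Of the 270 UMIs of penk in uninjured leptin+ motor neurons 228 were in the 5 cells with avp, and without these the level there was 230 CPM. Agrp, a precursor known from feeding circuits, had 3 and 89 UMIs (-3.85), and apln, the apelin precursor, 15 and 83 (-1.43).

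**Figure D5:**
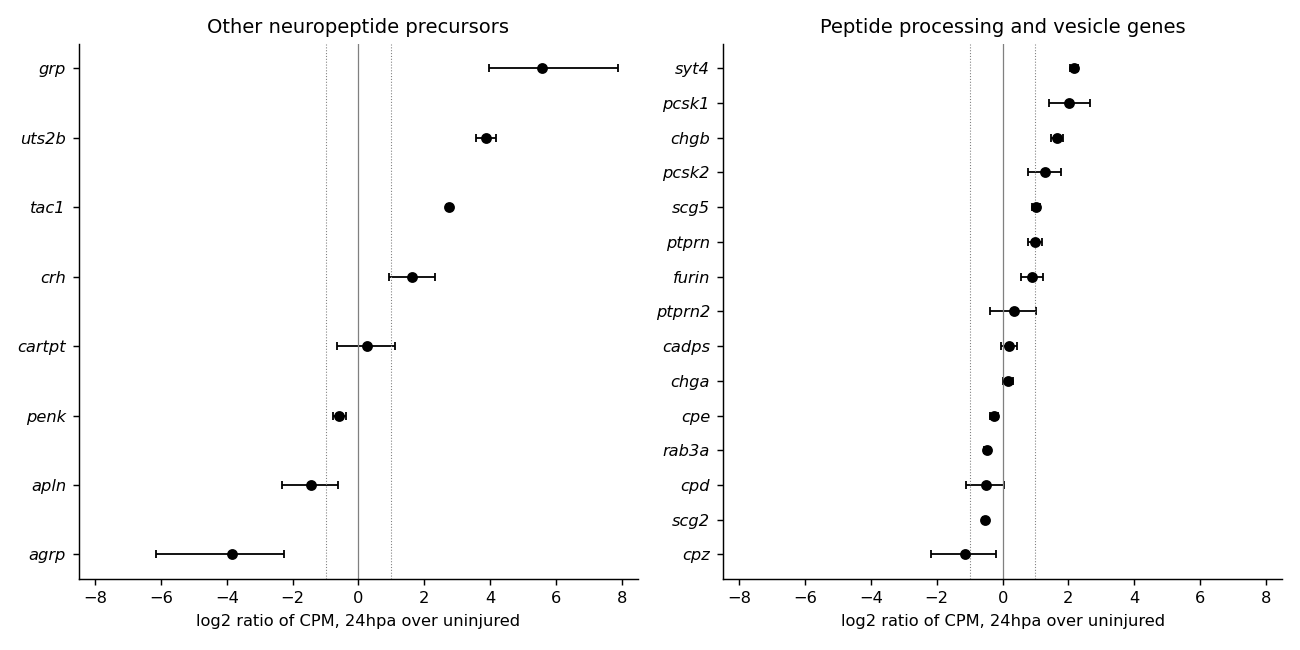
Log2 ratio of CPM in neural cells at 24hpa over uninjured (horizontal axis, dotted lines at 2-fold) for listed neuropeptide precursors and for peptide processing and vesicle genes with at least 50 UMIs, with exact 95% intervals. Precursors ran from agrp (-3.85) to grp (5.56) and processing genes from cpz (-1.13) to syt4 (2.17).

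Genes that process and package peptides were examined last. Of 24 listed 19 were matched and 15 had at least 50 UMIs, of which 5 were at least 2-fold higher at 24hpa, 1 was lower and 9 lay between, with a median log2 ratio of 0.33. Spinal cord progenitors made up 71 of 295 neural cells at 24hpa and 273 of 780 uninjured. These ratios thus mix level and makeup, whose parts were not tested. Of all 8180 genes with at least 50 UMIs in neural cells, 7.08% were at least 2-fold higher and 7.15% lower. With TMM scaling these shares were 5.73% and 8.33%. The prohormone convertase genes pcsk1 (71 UMIs at 24hpa and 36 uninjured) and pcsk2 (73 and 62) had log2 ratios of 2.02 and 1.28. Syt4, a synaptotagmin of dense-core vesicles, had 1527 and 696 UMIs (2.17), and chgb, chromogranin B, 630 and 410 (1.66). Scg5, which encodes the chaperone of pcsk2, stood at 1.01, which TMM scaling took below 2-fold, leaving 4 higher. The lower gene was cpz, a carboxypeptidase gene (-1.13), which had 12 neural UMIs of 1690 in the library at 24hpa and 54 of 1668 uninjured. With free RNA subtracted its ratio was -0.80, within 2-fold, and ptprn, a dense-core vesicle membrane gene, stood at 1.01 in place of 0.99, so that 6 were higher and none lower. The abundant granule genes scg2 (-0.54), cpe (-0.26), rab3a (-0.48) and chga (0.17) lay within 2-fold.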

How the data were processed

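GFP+ tail cells were captured on the 10x Genomics platform, 1 library per group. The authors deposited UMI counts per gene and barcode for all 737280 barcodes, made with Cell Ranger, and 2 tables of cells with clusters, UMI counts and phases. The submitters' processing notes list GRCz11, a zebrafish build; the build behind these counts is not given in the sources used here, so no coordinates are printed. Deposited UMI counts per cell differed from matrix sums by at most 157. In these, 27 columns were not used. The members and gene lists were chosen with earlier results of these data known.

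Counts were summed per library and group of cells, with exact 95% Poisson intervals for CPM, exact conditional intervals for ratios, Clopper-Pearson intervals for shares (for a share of 0, also the limit that 3 counts give, which bounds cells with a UMI and not cells expressing the gene) and Newcombe intervals for differences. A group with 0 UMIs was set to 3 UMIs and its ratio is a bound; no ratio was given where both groups had 3 or fewer or where the bound ran against the counts. Clusters were compared with at least 20 cells per library and genes with at least 50 UMIs. Thinned shares are expectations over all thinnings. Named genes were the members, up to 6 genes per list by UMIs among those in at least 20 neural cells, the 3 genes most alike over pools and the 5 highest in positive cells; other class genes and grp were named after their values were seen. Alternatives were TMM scaling (edgeR 4.0.16, R 4.3.3), mean CPM per cell, free RNA subtraction, cells with at least 1000 genes, leaving out doublets or the leptin+ cluster, weighting to the uninjured makeup of clusters, and other UMI thresholds; values without the cells that carry a level, and free RNA subtraction for the listed genes, were added after seeing the data. Scrublet in scanpy 1.11.5 marked 4 cells at 24hpa and 8 uninjured, under 0.5% of cells, so it may not have worked. Python 3.11.15, numpy 2.4.6 and scipy 1.17.1 were used. The ratio code was tested on simulated data. Sequences were not used here.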

Additional observations from a re-analysis of the deposited data

Results flagged for a closer look

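Barcodes that were not called as cells also held pnoc. At 24hpa 17 such barcodes held at least 10 pnoc UMIs each, 435 in all, at total depths of 920 to 2955 UMIs, against 0 such barcodes in the uninjured library. These barcodes entered no comparison. For rln3 they numbered 7 at 24hpa and 21 in the uninjured library.

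Cck differed in direction between clusters. In the motor neuron cluster the log2 ratio was at least 0.90, from 5 UMIs in 2 cells at 24hpa and none uninjured, and in the leptin+ motor neuron cluster at most -8.58. Both values compare cells unlike in transporter genes. Cells with slc17a7 alone, which held 4 of those 5 UMIs, numbered 19 at 24hpa and 0 uninjured in motor neurons. In the leptin+ cluster they numbered 1 and 6. The difference between the clusters was not tested.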

How the results depend on the processing

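Of 162 alternative values for 32 results, 140 kept direction and size, 21 moved and 1 reversed; the causes were not tested. No paired analysis was possible because each group has 1 library. With CPM averaged per cell the log2 ratio in neural cells was 4.78 for pnoc, -3.90 for cck, at most -1.67 for avp and -1.68 for rln3; in the leptin+ cluster it was 1.35 for pnoc, at most -7.78 for cck and at most -4.06 for avp. Weighted to the uninjured makeup of clusters it was 3.71 for pnoc and -3.45 for rln3, in this case without the dopaminergic cluster, which had 8 cells at 24hpa. That cluster held 97.7% of the neural rln3 UMIs at 24hpa and 87.5% uninjured, so the -3.45 leaves most of them out. TMM scaling, which moved all neural ratios by -0.11, gave -1.33 for rln3. Without the leptin+ cluster cck reversed to 0.48 and rln3 was -0.94. The difference in positive share was 13.2 percentage points for pnoc at 10 UMIs, a threshold added after seeing the data, and for rln3 -7.88 at 2 UMIs, -5.45 at 10, -11.6 thinned to 2600 UMIs and -13.6 thinned to 5000. Scaled to 2600 UMIs the median UMIs per positive cell were 0.885 for cck at 24hpa, and 0.300 for cck, 0.455 for pnoc, 0.719 for avp and 0.581 for rln3 in the uninjured library. Leaving out doublets or cells under 1000 genes moved none. With TMM scaling 5.73% of genes were at least 2-fold higher and 8.33% lower. Free RNA subtraction left no ratio for rln3 in the leptin+ and interneuron clusters. The levels of cck, avp and leptin+ pnoc are carried by 1 to 5 cells, which limits them; the part of depth was not tested.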
